A study of Mus musculus with 6 samples.

Results

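The 58 genes described here code for the enzymes that build, sulfate and trim glycosaminoglycans, the long acidic sugar chains of proteoglycans. They were picked by a rule on gene symbols out of 26130 genes measured in skeletal stem cells of the mouse Achilles tendon-to-bone interface. Every symbol that the rule names was taken, and the genes were chosen with earlier results of these data known. Across these genes one stood far apart after partial injury. Hs3st1, which places the rare 3-O-sulfate on heparan sulfate, averaged 3.04 ± 1.17 CPM in injured cells (SD, n = 3), against 51.6 ± 29.9 CPM in sham control cells (SD, n = 2). The keratan sulfate sulfotransferase Chst1 and the chondroitin 6-O-sulfotransferase Chst3 were also lower in every injured library than in every other library. For Chst3 the margin was narrow, 6.06 CPM in the highest injured library against 6.08 CPM in the lowest sham library. It was gone with library size alone as scaling. The linkage enzyme B4galt7 was higher in every injured library, as were Ext2, Hs2st1, Chpf2 and Chst14. Margins were narrow here too for Ext2, at 176 CPM in injured 3 against 171 CPM in sham 1. The same held for Hs2st1 (27.5 CPM in injured 1, 25.5 CPM in sham 2) and Chst14 (29.1 CPM in injured 3, 28.1 CPM in sham 1). Of 45 enzyme genes tested against all non-injured libraries, 3 (6.67%) lay wholly below and 5 (11.1%) wholly above. Over all genes these shares were 7.07% and 9.23%. No enzyme gene passed edgeR's test after adjustment over all genes. CPM are counts scaled to a common library size by the trimmed mean of M-values.

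Most of these chains start in the secretory pathway with a short linkage chain on a serine of the core protein, begun by xylose. From there the chain becomes either heparan sulfate, polymerised by the exostosins, or chondroitin and dermatan sulfate, polymerised by the chondroitin synthases. Sulfotransferases then decorate the chain at set positions, using the activated sulfate donor PAPS, and the pattern decides which growth factors, protease inhibitors and matrix proteins bind. Keratan sulfate is built without xylose, on N-linked or O-linked glycans of its core proteins. Hyaluronan is made at the plasma membrane, without a core protein and without sulfate. In tendon, fibrocartilage and cartilage these chains hold water under compression and store ligands such as FGFs, BMPs and hedgehog proteins.

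The cells came from C57BL/6 mice and were isolated from digested interfaces by flow cytometry on post-injury day 7 as mSSCs, stem cells of the skeleton whose progeny form bone, cartilage and stroma; the sorting markers are not stated in the labels. The groups were injured, with a partial injury of the tendon-to-bone interface (n = 3), uninjured (n = 1) and sham control (n = 2). One label of the uninjured library calls it a sham, so it is shown by itself and was joined to the sham libraries in a second comparison, as all non-injured (n = 3). No label gives age, sex, pooling or whether libraries came from separate animals, so the p-values speak for the spread among these libraries alone, some of which can be technical. cDNA was amplified from 150 pg of total RNA, an input at which rare transcripts can drop out of a library.

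Totals ran from 46250870 to 51089267 counts in the injured libraries, were 37506188 in the uninjured library, and were 38382144 and 40483028 in sham 1 and sham 2. Between 46 and 52 of the 58 enzyme genes had a count in the injured libraries, 44 did in the uninjured library, and 43 and 45 did in sham 1 and 2. They took 0.231% to 0.372% of all counts in injured libraries, 0.267% in the uninjured one, and 0.193% and 0.266% in sham 1 and 2. Itgav and Cd200, surface proteins by which these cells are usually selected, had counts in every library, from 31.0 CPM upward. Markers that such a sort selects against, of which 5 were in the table, summed to 18.2 to 121 CPM in injured libraries. Their sum was 97.6 CPM in the uninjured library, 297 CPM in sham 1 and 0.663 CPM in sham 2. In sham 1 it was above the 110 CPM that Itgav and Cd200 summed to. Libraries differed in RNA of other cells, within groups as well as between them. Erythroid markers, of which 6 were in the table, summed to 7.34 to 6076 CPM in injured libraries, 127 CPM in the uninjured library, 38763 CPM in sham 1 and 1.19 CPM in sham 2. Sums of 9 macrophage markers were 37.2 to 4833 CPM in injured libraries, 176 CPM in the uninjured library, 2885 CPM in sham 1 and 47.3 CPM in sham 2. Sums of 9 neutrophil markers ran from 4.37 to 6289 CPM in injured libraries, with 792 CPM in the uninjured library, 9943 CPM in sham 1 and 23.0 CPM in sham 2.

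Against sham control, 51 of the 58 genes had enough counts to be tested, and the other 7 (B3gat1, Ndst4, Hs6st3, Hs3st2, Hs3st5, Chst8 and Chst9) had at most 11 counts each over all libraries together. With p-values from edgeR's quasi-likelihood test, adjusted by Benjamini-Hochberg across 16752 genes, 0 of the 51 passed an adjusted p of 0.05, as did 0% of all genes tested. At an unadjusted p under 0.05, 1 gene was higher and 3 were lower in injured cells, or 1.96% and 5.88% of the 51, where the background over all genes was 2.44% higher and 2.2% lower. DESeq2 called 4 of the 51 (7.84%; background 2.2%): Hs3st1 and Chst1, both lower, and Hs6st2 and Chst4, each with counts in a single injured library. The fold change was above 0 for 39 of the 51, or 76.5%, against 53.7% of all genes tested, and the median log2 fold change was 0.39 against 0.09 over all genes. All injured libraries lay above both sham libraries for 9 of the 51 (17.6%; background 11.9%) and below both for 4 (7.84%; background 9.13%). The share lying below was thus no larger than over all genes. With library size alone as scaling, the median of all genes shifted to 0.23 and that of the enzyme genes to 0.57, so folds are to be read relative to that shift.

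Against all non-injured libraries, 45 genes were tested and again 0 passed by edgeR, with 0% of 14110 genes passing. At an unadjusted p under 0.05, 2 were higher and 4 lower, or 4.44% and 8.89% of the 45, with a background of 3.71% higher and 3.72% lower. DESeq2 called 3 (6.67%; background 2.45%), all lower: Hs3st1, Chst1 and Chst3. The injured libraries lay wholly above the non-injured for 5 genes (11.1%; background 9.23%) and wholly below for 3 (6.67%; background 7.07%). Both comparisons use the same injured and sham libraries and are therefore not independent of each other.

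**Figure D1:**
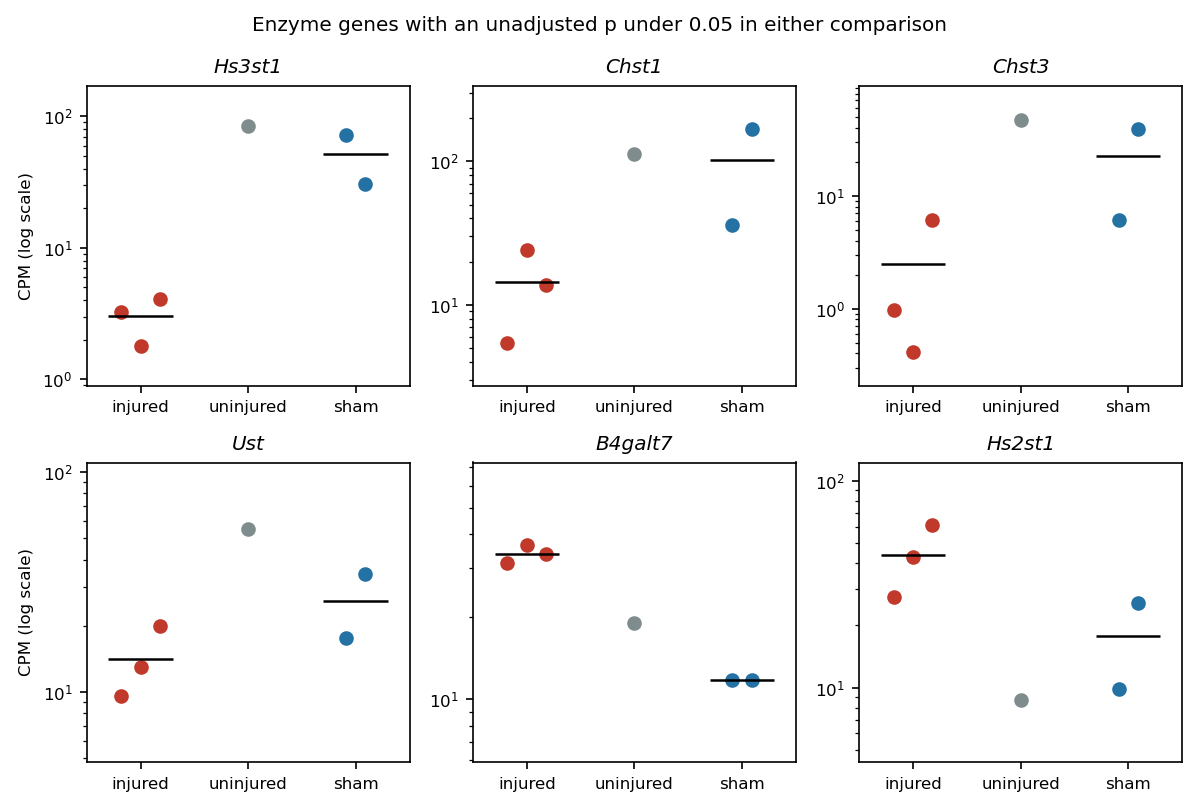
CPM on a log axis in each library (points; 3 injured, 1 uninjured, 2 sham) for the 6 enzyme genes with an unadjusted edgeR p under 0.05 in either comparison; horizontal bars are the means of the injured and the sham group. The injured libraries of Hs3st1, at 1.78 to 4.09 CPM, lie below all others, and those of B4galt7, at 31.4 to 36.5 CPM, above all others.

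The linkage enzymes come first in the pathway. B4galt7 adds the first galactose to the xylose on the core protein. It stood at 31.4, 36.5 and 34.0 CPM in injured libraries 1, 2 and 3, against 18.9 CPM in the uninjured library and 11.8 CPM in each of sham 1 and sham 2. Every injured library was above every other library, and the spread within the injured group was small (SD 2.55 CPM). The log2 fold change was 1.53 ± 0.51 (SE) over sham control (edgeR unadjusted p = 0.0203, adjusted p = 0.865) and 1.26 ± 0.42 over all non-injured (unadjusted p = 0.0199, adjusted p = 0.539), and DESeq2 did not call it (adjusted p = 0.0630 and 0.170). The fold was between 1.47 and 1.58 log2 units over sham control when any 1 library was left out.

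Among the other linkage genes are the xylosyltransferases, which begin heparan, chondroitin and dermatan sulfate chains. Xylt2 stood at 31.6, 36.4 and 27.1 CPM in injured libraries, against 15.1 CPM in the uninjured library and 39.8 and 9.33 CPM in sham 1 and 2. The groups overlapped, and the log2 fold change over sham control of 0.37 ± 0.69 (SE) turned to -0.33 without sham 2 and was 1.77 without sham 1. Xylt1 averaged 57.0 ± 37.3 CPM in injured (SD, n = 3) and 45.1 ± 39.6 CPM in sham control cells (SD, n = 2), and its log2 fold change was 0.34 ± 0.77 (SE). B3gat3, which adds the closing glucuronic acid of the linkage chain, was nearly level, at 28.5 ± 4.13 CPM in injured (SD, n = 3) and 25.4 ± 2.42 CPM in sham control cells (SD, n = 2). Its relatives B3gat1 and B3gat2, which act on the HNK-1 epitope of neural glycans, stayed under 2 CPM in every library.

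Heparan sulfate polymerisation followed. All 5 exostosin family genes had a fold above 0 over sham control, as did 53.7% of all genes tested. Their median log2 fold change was 1.12, against 0.09 over all genes, and 0 of them had an unadjusted p under 0.05. Ext1 and Ext2 form the polymerase. Ext1 stood at 56.7, 45.2 and 101 CPM in injured libraries 1, 2 and 3, against 27.3 CPM in the uninjured library and 10.4 and 48.5 CPM in sham 1 and 2, and sham 2 lay above injured 2. Its log2 fold change over sham control (edgeR unadjusted p = 0.149 with all libraries) was 2.71 without sham 2 and 0.48 without sham 1. Ext2 stood at 196, 209 and 176 CPM in injured libraries, all above the 159 CPM of the uninjured library and the 171 and 102 CPM of sham 1 and 2. The difference was small, 0.51 ± 0.39 on the log2 scale (SE; edgeR unadjusted p = 0.233).

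Extl2, a transferase that can stop chain growth on a phosphorylated linkage, stood at 29.8, 34.1 and 23.7 CPM in injured libraries, against 29.7 CPM in the uninjured library and 19.9 and 6.93 CPM in sham 1 and 2. Its injured libraries were above both sham libraries and lay on either side of the uninjured one. Its log2 fold change was 1.12 ± 0.64 (SE; edgeR unadjusted p = 0.123) over sham control and 0.63 ± 0.59 over all non-injured. The first was 2.07 without sham 1 and 0.56 without sham 2. Extl3, which starts the heparan sulfate chain, ranged from 50.4 to 66.7 CPM in injured and from 39.3 to 55.7 CPM in non-injured libraries. Extl1 reached 11.5 CPM in injured 3 alone and was at most 1.38 CPM elsewhere.

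The heparan sulfate modifying enzymes held the clearest difference. Hs3st1 is the sulfotransferase that completes the antithrombin-binding site of anticoagulant heparan sulfate in mice and is best known from endothelium. It stood at 3.26, 1.78 and 4.09 CPM in injured libraries 1, 2 and 3 (144, 108 and 191 counts), against 85.1 CPM in the uninjured library and 72.7 and 30.5 CPM in sham 1 and 2 (3496, 2690 and 1103 counts). No injured library came near a non-injured one: the lowest of those, sham 2, was above the highest injured library, injured 3, by more than the whole injured range. As bulk RNA was measured, fewer cells that express a gene and less RNA per cell cannot be told apart, here or in the results that follow.

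Over sham control the log2 fold change of Hs3st1 was -4.08 ± 0.62 (SE), 16.9-fold lower in injured cells, with an edgeR unadjusted p of 0.00035 that failed adjustment over all genes (adjusted p = 0.525) and a DESeq2 adjusted p of 8.47e-07. Over all non-injured it was -4.37 ± 0.60 (SE), 20.7-fold lower, with an edgeR unadjusted p of 0.000132 (adjusted p = 0.211) and a DESeq2 adjusted p of 2.47e-10. By p it ranked 10 of 16752 genes in the first comparison and 7 of 14110 in the second. Without sham 1 the log2 fold change over sham control was -3.32, and over all alternatives it lay between -4.58 and -3.32, with adjusted p between 8.47e-07 by DESeq2 and 1. The sum of 9 endothelial markers stood at 304, 150.1 and 76.2 CPM in injured libraries 1, 2 and 3, against 765 CPM in the uninjured library and 1602 and 0.746 CPM in sham 1 and 2, where 2 of the 9 had a count in sham 2 and all 9 in each other library. The sum of 8 Schwann cell markers was lower in injured libraries too, at 298 to 582 CPM, against 940.4 CPM in the uninjured library and 5158 and 846 CPM in sham 1 and 2. All 8 had counts in every library but the uninjured one, which had 6 of them. The part of either cell type in the result was not tested.

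**Figure D2:**
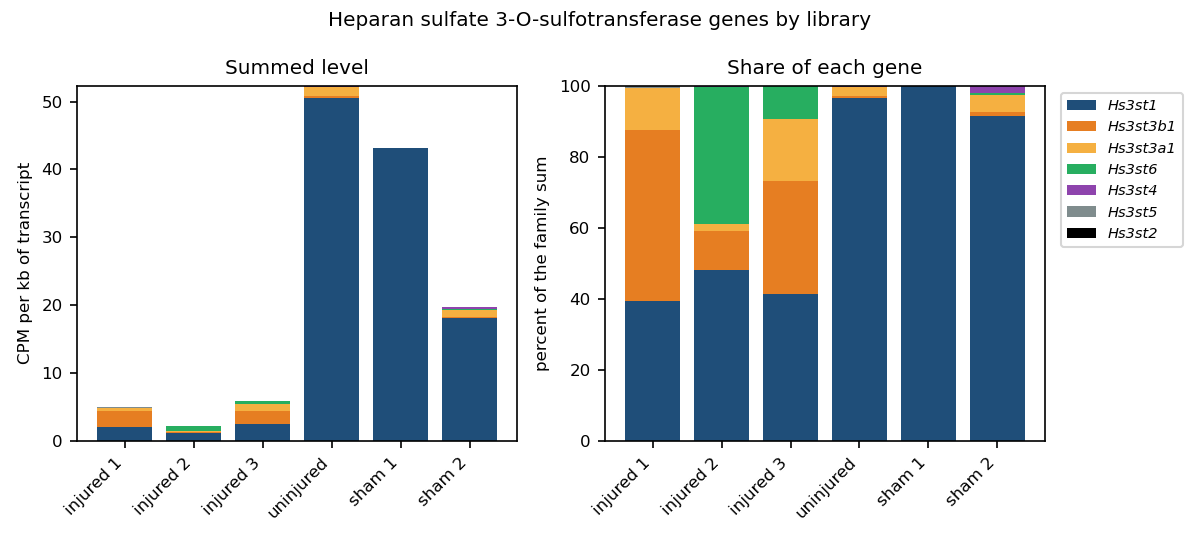
CPM per kilobase of transcript of the 7 heparan sulfate 3-O-sulfotransferase genes, stacked, in each library (left), and each gene's share of that sum in percent (right). Hs3st1 makes up 39.4% to 48.0% of the sum in injured libraries and 91.6% to 99.9% in the others, and the sum itself is at most 5.88 in injured libraries and at least 19.7 in the others.

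The 3-O-sulfotransferases are a family of 7 genes in mice, and the remaining 6 were read beside Hs3st1. Per kilobase of transcript, the family summed to 4.91, 2.21 and 5.88 CPM per kb in injured 1, 2 and 3, against 52.3 in the uninjured library and 43.2 and 19.7 in sham 1 and 2. Hs3st1 held 39.4%, 48.0% and 41.3% of that sum in injured libraries, against 96.6%, 99.9% and 91.6% in the uninjured library, sham 1 and sham 2. The sum and the share of Hs3st1 were thus both lower in every injured library than in any other. As Hs3st1 held at least 91.6% of the sum in non-injured libraries, both largely restate its own level. Hs3st3b1, whose product in humans makes an entry receptor for herpes simplex virus, stood at 11.6, 1.19 and 9.23 CPM in injured libraries, against 1.85 CPM in the uninjured library and 0 and 0.884 CPM in sham 1 and 2. Injured 2 lay below the uninjured library, and the log2 fold change over sham control of 4.05 ± 2.41 (SE) had an edgeR unadjusted p of 0.138. Hs3st3a1, a close relative with a near-identical catalytic part whose reads may not be fully separable, ranged from 0.182 to 4.05 CPM in injured and from 0 to 4.87 CPM in non-injured libraries. Hs3st4 had 1 count in the injured libraries, 23 in the uninjured one and 45 in sham 2, with none in sham 1. Its log2 fold change of -6.17 ± 3.36 (SE) over sham control had an edgeR unadjusted p of 0.110. Hs3st6 reached at most 1.01 CPM in any library, and Hs3st2 and Hs3st5 had 2 and 4 counts in all.

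The promoter of Hs3st1 is shown with those of the genes whose libraries also did not overlap between groups and had an unadjusted p under 0.05 in both comparisons, so that the lower genes can be set beside the higher one. Each run covers 250 bases before and 50 after the annotated start in RefSeq's GRCm38.p6, given 5′ to 3′ on the gene's own strand, and capitals mark the GC box.
Hs3st1, chr5:39644582-39644881, minus strand: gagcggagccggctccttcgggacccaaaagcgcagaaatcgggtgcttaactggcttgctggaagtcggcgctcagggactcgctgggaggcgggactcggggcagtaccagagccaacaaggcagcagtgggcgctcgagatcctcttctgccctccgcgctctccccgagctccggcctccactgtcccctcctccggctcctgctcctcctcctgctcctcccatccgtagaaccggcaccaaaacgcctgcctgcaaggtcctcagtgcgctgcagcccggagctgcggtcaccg
Chst1, chr2:92600867-92601166, plus strand: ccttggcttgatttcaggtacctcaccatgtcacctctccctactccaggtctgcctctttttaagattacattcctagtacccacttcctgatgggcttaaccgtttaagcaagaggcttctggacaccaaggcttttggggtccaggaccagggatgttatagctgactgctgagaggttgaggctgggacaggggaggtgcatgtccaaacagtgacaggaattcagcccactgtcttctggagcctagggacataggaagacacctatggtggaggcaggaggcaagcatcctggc
Chst3, chr10:60219211-60219510, minus strand: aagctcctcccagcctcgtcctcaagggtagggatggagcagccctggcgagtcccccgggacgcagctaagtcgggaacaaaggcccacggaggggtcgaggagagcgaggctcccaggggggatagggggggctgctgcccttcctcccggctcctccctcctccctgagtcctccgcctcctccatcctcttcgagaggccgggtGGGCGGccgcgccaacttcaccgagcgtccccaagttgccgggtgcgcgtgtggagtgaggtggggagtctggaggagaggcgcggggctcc
B4galt7, chr13:55599646-55599945, plus strand: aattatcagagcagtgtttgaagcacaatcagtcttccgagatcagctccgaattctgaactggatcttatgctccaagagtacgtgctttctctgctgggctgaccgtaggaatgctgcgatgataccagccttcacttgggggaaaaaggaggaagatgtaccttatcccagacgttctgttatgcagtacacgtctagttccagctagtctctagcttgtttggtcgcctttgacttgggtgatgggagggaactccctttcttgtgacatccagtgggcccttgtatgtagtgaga

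The windows of Hs3st1 and Chst3 are rich in G and C, at 67.0% and 70.0%, and those of Chst1 (52.7%) and B4galt7 (48.3%) are nearer the median of 52.7% over all 32851 promoters in the table. Promoters were found for 45 of the 58 enzyme genes, 54 windows in all, with a median G and C content of 65.2%. Of 5 motifs searched on both strands, none of which contains another, the 4 windows held 1 match, the GC box of Chst3 that begins 209 bases from its 5′ end. A GC box, spelled GGGCGG, is present in 33 of the 54 windows, or 61.1%, and in 35.7% of all promoters in the table. A TATA box, spelled TATAAA, is present in 3.70% of the enzyme gene windows and in 13.6% of all promoters. The letters CCAAT are present in 44.4% of the enzyme gene windows and in 37.4% of all promoters. An E-box, spelled CACGTG, is present in 9.26% of the windows and in 7.15% of all promoters. The AP-1 motif, spelled TGANTCA, is present in 3.70% of the windows and in 7.81% of all promoters.

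Genes of the other heparan sulfate modifications were not lower in this way. Hs2st1, which sulfates the uronic acid at its 2-O position, stood at 27.5, 42.6 and 61.3 CPM in injured libraries 1, 2 and 3, against 8.69 CPM in the uninjured library and 9.87 and 25.5 CPM in sham 1 and 2. Every injured library was above every other, though injured 1 exceeded sham 2 only narrowly. The log2 fold change was 1.31 ± 0.64 (SE; edgeR unadjusted p = 0.0825, adjusted p = 0.865) over sham control and 1.57 ± 0.58 (unadjusted p = 0.0284, adjusted p = 0.574) over all non-injured. Leaving out sham 2 moved the first to 2.15, and leaving out sham 1 moved it to 0.78.

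Glce, the epimerase that turns glucuronic into iduronic acid, stood at 11.7, 14.6 and 25.8 CPM in injured libraries, against 39.9 CPM in the uninjured library and 2.14 and 8.01 CPM in sham 1 and 2. It was above both sham libraries and below the uninjured one, so the log2 fold change was 1.78 ± 0.84 (SE; edgeR unadjusted p = 0.0732) over sham control and 0.05 ± 1.00 over all non-injured. The first was 3.02 without sham 2 and 1.12 without sham 1. The N-deacetylase and N-sulfotransferase Ndst1 was level, at 62.9 ± 17.9 CPM in injured (SD, n = 3) and 62.1 ± 17.0 CPM in sham control cells (SD, n = 2). Its isoform Ndst2 varied within the non-injured group far more than with injury, at 14.2 to 26.1 CPM in injured libraries, 0.730 CPM in the uninjured library and 47.3 and 9.33 CPM in sham 1 and 2. Hs6st1, the main 6-O-sulfotransferase gene here, averaged 20.8 ± 5.15 CPM in injured (SD, n = 3) and 18.4 ± 4.06 CPM in sham control cells (SD, n = 2). Hs6st2 had 120 counts, all in injured 3, Ndst3 stayed under 1 CPM in every library, and Ndst4 had no count in any.

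Enzymes that edit finished chains overlapped between the groups. The extracellular 6-O-endosulfatases Sulf1 and Sulf2 strip sulfate from heparan sulfate outside the cell and thereby alter Wnt, FGF and BMP binding. Sulf2 stood at 504, 282 and 342 CPM in injured libraries, against 106 CPM in the uninjured library and 208 and 332 CPM in sham 1 and 2. Sulf1 stood at 101, 222 and 241 CPM in injured libraries, against 178 CPM in the uninjured library and 84.5 and 166 CPM in sham 1 and 2. Groups overlapped for both, and the log2 fold changes over sham control were 0.48 ± 0.44 for Sulf2 and 0.58 ± 0.53 for Sulf1 (SE; edgeR unadjusted p = 0.316 and 0.306). Summed per kilobase, the pair stood at 120 to 150.1 CPM per kb in injured libraries, at 65.5 in the uninjured one and at 71.3 and 120 in sham 1 and 2. Heparanase (Hpse), which cuts the chain, stood at 13.9, 9.56 and 4.00 CPM in injured libraries, against no count in the uninjured library and 2.24 and 5.14 CPM in sham 1 and 2.

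**Figure D3:**
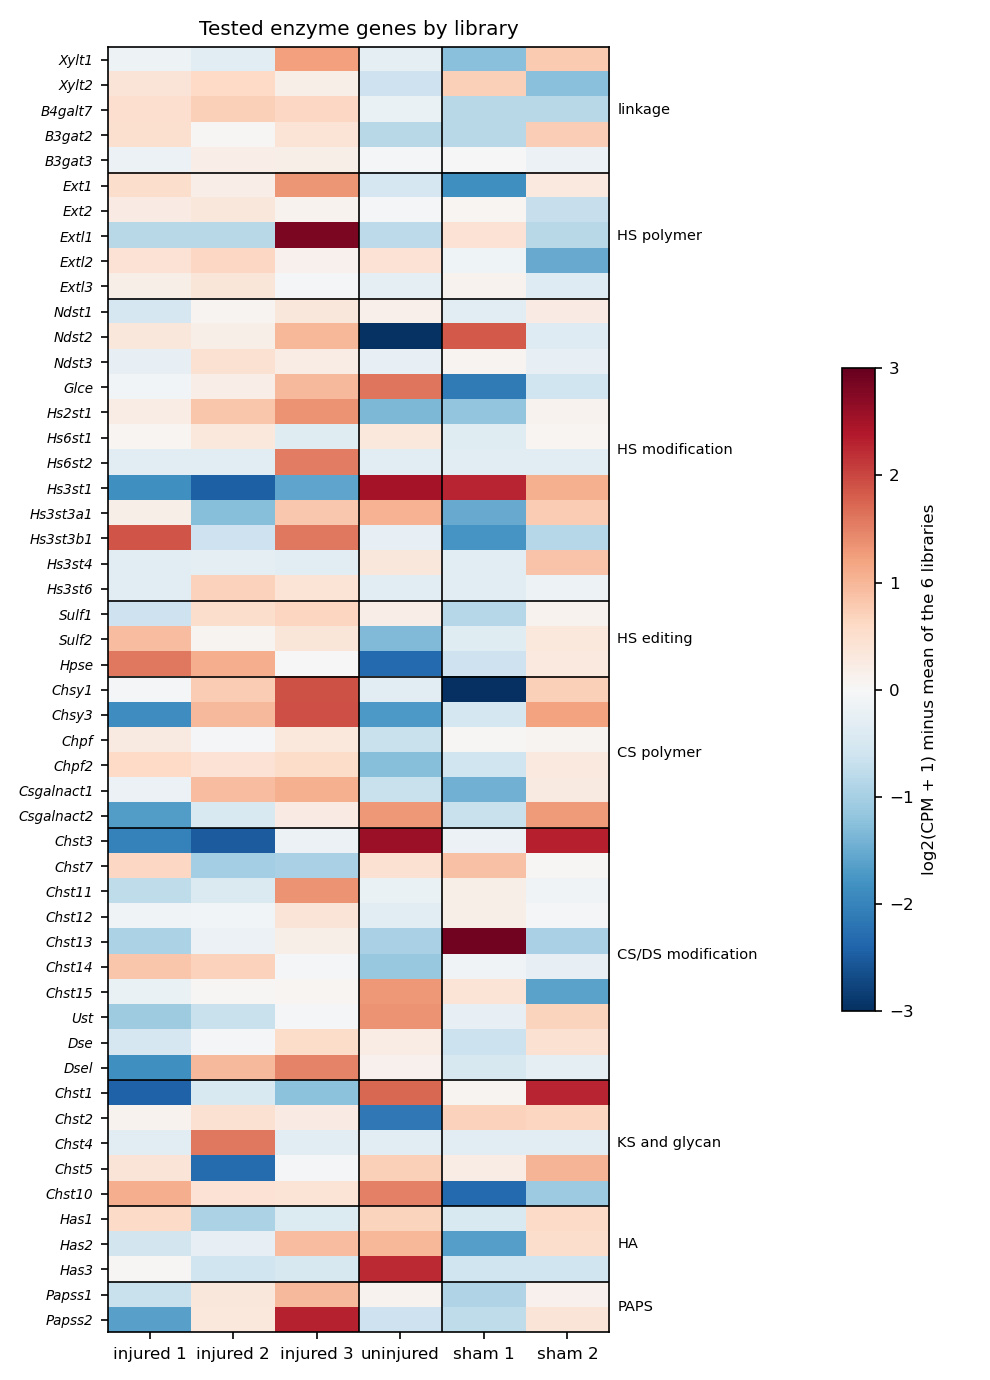
Level of each of the 51 tested enzyme genes in each library, as log2(CPM + 1) minus that gene's mean over the 6 libraries (colour; red higher, blue lower, saturated at 3 log2 units), with genes in rows grouped by step of synthesis (HS, heparan sulfate; CS/DS, chondroitin and dermatan sulfate; KS, keratan sulfate; HA, hyaluronan; PAPS, sulfate donor). Hs3st1 is blue in all 3 injured libraries and red in the other 3, whereas most genes vary as much within groups as between them.

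Of the 6 chondroitin chain assembly genes, 5 had a fold above 0 over sham control, as did 53.7% of all genes tested. The median log2 fold change of the 6 was 0.53, against 0.09 over all genes, with 0 of them at an unadjusted edgeR p under 0.05. Csgalnact1, which starts the chain and matters most in cartilage, stood at 59.4, 130.2 and 144 CPM in injured libraries 1, 2 and 3, against 42.2 CPM in the uninjured library and 24.3 and 81.6 CPM in sham 1 and 2. Sham 2 was above injured 1, and the log2 fold change was 1.07 ± 0.65 (SE; edgeR unadjusted p = 0.146) over sham control, 2.19 without sham 2 and 0.44 without sham 1. Its partner Csgalnact2 pointed the other way, at 18.7, 44.9 and 73.8 CPM in injured libraries, against 154 CPM in the uninjured library and 38.5 and 151 CPM in sham 1 and 2, a log2 fold change of -1.05 ± 0.74 (SE; edgeR unadjusted p = 0.199). Injured and sham libraries overlapped for both starters, and the difference between the 2 genes was not tested.

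The chain itself is extended by the synthases Chsy1 and Chsy3 together with the polymerising factors Chpf and Chpf2. Chpf2 was the only one of them whose injured libraries lay above all others, at 175, 156 and 171 CPM, against 47.3 CPM in the uninjured library and 75.9 and 142 CPM in sham 1 and 2. Its log2 fold change was 0.62 ± 0.41 (SE; edgeR unadjusted p = 0.174) over sham control and 0.91 ± 0.43 (unadjusted p = 0.0697) over all non-injured. Chpf was level at 250 ± 32.5 CPM in injured (SD, n = 3) and 230 ± 5.48 CPM in sham control cells (SD, n = 2). Chsy1 stood at 29.7, 53.4 and 119 CPM in injured libraries, against 24.1 CPM in the uninjured library and 2.97 and 51.7 CPM in sham 1 and 2, and Chsy3 at 4.46, 37.9 and 75.1 CPM in injured libraries, against 4.99 CPM in the uninjured library and 12.7 and 45.1 CPM in sham 1 and 2. For both synthases injured 3 was the highest library and the groups overlapped.

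Chondroitin 6-O-sulfation is carried out by Chst3, and loss of the enzyme causes a skeletal dysplasia in humans. Chst3 stood at 0.973, 0.413 and 6.06 CPM in injured libraries 1, 2 and 3, against 46.8 CPM in the uninjured library and 6.08 and 39.2 CPM in sham 1 and 2. All injured libraries were below the others, but injured 3 and sham 1 were almost equal. Their order reversed with library size alone as scaling: injured 3 held 283 of 46250870 counts and sham 1 held 225 of 38382144. Chst3 had a log2 fold change of -3.19 ± 1.31 (SE; edgeR unadjusted p = 0.0455, adjusted p = 0.865; DESeq2 adjusted p = 0.240) over sham control and -3.64 ± 1.25 (unadjusted p = 0.0215, adjusted p = 0.551; DESeq2 adjusted p = 0.0417) over all non-injured. Without sham 2 the first was -1.29, without injured 3 it was -5.04, and without sham 1 it was -3.98.

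Chst7, the second 6-O-sulfotransferase, ranged from 8.52 to 28.5 CPM in injured and from 18.8 to 34.4 CPM in non-injured libraries. The 4-O-sulfotransferase Chst12 was level, at 138 ± 27.2 CPM in injured (SD, n = 3) and 135 ± 14.6 CPM in sham control cells (SD, n = 2). Chst11, the 4-O-sulfotransferase needed for the cartilage growth plate in mice, stood at 12.8, 16.3 and 59.3 CPM in injured libraries, against 19.4 CPM in the uninjured library and 25.6 and 20.8 CPM in sham 1 and 2. Per kilobase, Chst3 made up 0.242%, 0.115% and 1.14% of the sum of the 5 genes of 4-O- and 6-O-sulfation in injured libraries, against 11.5% in the uninjured library and 1.11% and 9.04% in sham 1 and 2. Chst12 made up 77.0%, 87.8% and 81.5% of that sum in injured libraries, against 66.1% in the uninjured library and 68.0% and 74.0% in sham 1 and 2. Its share was higher in every injured library, and Chst3's share overlapped, injured 3 lying above sham 1. Chst13 had 501 counts in sham 1, at most 56 in the injured libraries, and none in the uninjured library and sham 2, a log2 fold change of -3.38 ± 2.69 (SE; edgeR unadjusted p = 0.251) over sham control.

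Dermatan sulfate and rarer modifications gave one further gene with a small p. Ust, the uronyl 2-O-sulfotransferase of dermatan and chondroitin sulfate, stood at 9.55, 12.9 and 20.0 CPM in injured libraries, against 55.3 CPM in the uninjured library and 17.6 and 34.2 CPM in sham 1 and 2. Injured 3 was above sham 1. The log2 fold change was -0.87 ± 0.58 (SE; edgeR unadjusted p = 0.179) over sham control and -1.34 ± 0.56 (unadjusted p = 0.0483, adjusted p = 0.668) over all non-injured, and the second became -0.86 without the uninjured library. Chst14, which sulfates dermatan and is mutated in a human musculocontractural Ehlers-Danlos syndrome, stood at 54.2, 49.3 and 29.1 CPM in injured libraries, all above the 13.1 CPM of the uninjured library and the 28.1 and 25.4 CPM of sham 1 and 2, and the log2 fold change was 0.72 ± 0.49 (SE; edgeR unadjusted p = 0.181). The epimerase Dse averaged 77.0 ± 28.9 CPM in injured (SD, n = 3) and 75.0 ± 39.3 CPM in sham control cells (SD, n = 2). Its relative Dsel ranged from 4.28 to 52.0 CPM in injured and from 12.6 to 19.8 CPM in non-injured libraries, and Chst15 from 19.1 to 23.1 CPM and from 6.65 to 55.6 CPM.

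**Figure D4:**
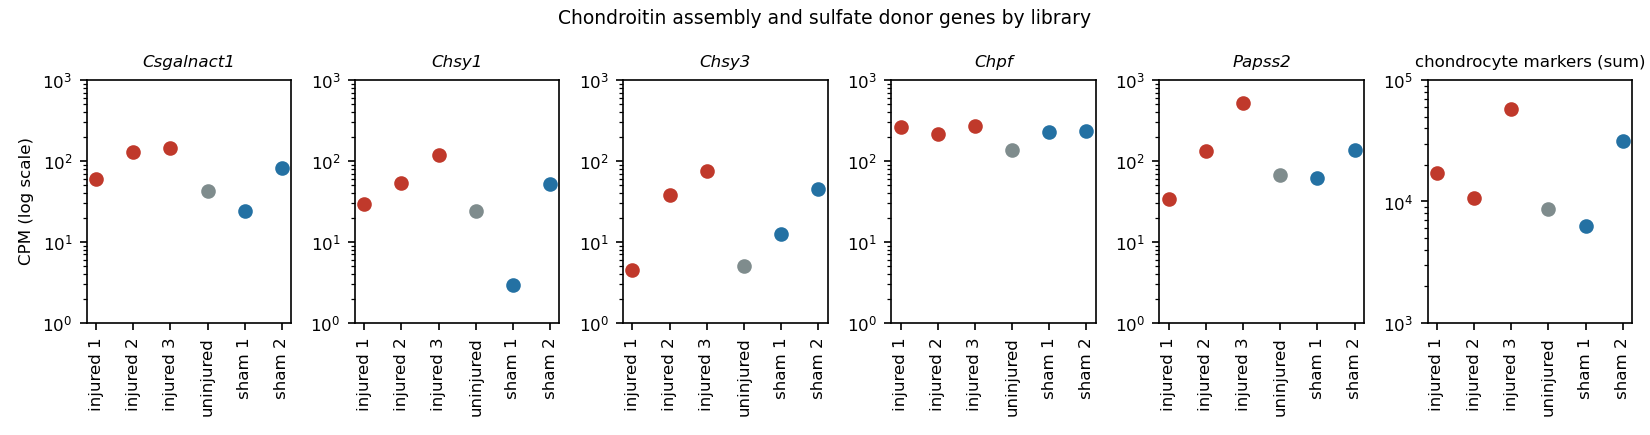
CPM on a log axis of 4 chondroitin assembly genes, of the sulfate donor gene Papss2 and of the sum of 10 chondrocyte markers (last panel, own axis), in each library; red, injured; grey, uninjured; blue, sham. Injured 3 holds the highest value in every panel, and for Papss2 the injured libraries span 33.4 to 521 CPM. In the assembly genes not drawn, injured 3 is not the highest. Csgalnact2 is at 73.8 CPM there and at 154 CPM in the uninjured library, and Chpf2 at 171 CPM there and at 175 CPM in injured 1.

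Keratan sulfate and related glycans are sulfated on galactose or N-acetylglucosamine. Chst1, the galactose 6-O-sulfotransferase of keratan sulfate, stood at 5.45, 24.1 and 13.7 CPM in injured libraries 1, 2 and 3, against 113 CPM in the uninjured library and 35.8 and 167 CPM in sham 1 and 2. No injured library reached the lowest non-injured one, although sham 1 was not far above injured 2. The log2 fold change was -2.82 ± 0.82 (SE), 7.04-fold lower in injured than in sham control cells (edgeR unadjusted p = 0.0113, adjusted p = 0.865; DESeq2 adjusted p = 0.0416), and -2.87 ± 0.74 over all non-injured (unadjusted p = 0.00573, adjusted p = 0.452; DESeq2 adjusted p = 0.00477). Without sham 2 the first was -1.31 (unadjusted p = 0.159), and without sham 1 it was -3.54. Chst2, an N-acetylglucosamine 6-O-sulfotransferase, stood at 71.0, 92.1 and 78.9 CPM in injured libraries, against 14.2 CPM in the uninjured library and 108 and 105 CPM in sham 1 and 2. It was below both sham libraries and above the uninjured one.

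Chst10, which makes the sulfated HNK-1 epitope, stood at 9.62, 5.75 and 5.63 CPM in injured libraries, against 13.4 CPM in the uninjured library and 0 and 1.35 CPM in sham 1 and 2. The injured libraries were between the sham and the uninjured ones, and the log2 fold change was 3.37 ± 2.05 (SE; edgeR unadjusted p = 0.146) over sham control and 0.50 ± 1.83 over all non-injured. The first was 2.37 without sham 1, and the second 3.38 without the uninjured library. Chst5 ranged from 0.215 to 6.88 CPM in injured and from 6.11 to 11.3 CPM in non-injured libraries. Chst4 had 165 counts, all in injured 2, Chst8 had 6 counts, all in injured 3, and Chst9 had none in any library.

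Among the hyaluronan synthases, Has1 took most of the family's level per kilobase in every library, 81.0% to 95.9% in injured and 88.9% to 96.3% in non-injured libraries. Has1 stood at 344, 119 and 173 CPM in injured libraries, against 364 CPM in the uninjured library and 166 and 342 CPM in sham 1 and 2. Has2, the synthase needed for limb and heart development in mice, stood at 29.0, 35.9 and 81.9 CPM in injured libraries, against 86.0 CPM in the uninjured library and 13.0 and 61.7 CPM in sham 1 and 2. Groups overlapped for both, and the log2 fold changes over sham control were -0.26 ± 0.57 and 0.39 ± 0.77 (SE; edgeR unadjusted p = 0.662 and 0.628). That of Has2 was 1.91 without sham 2 and -0.34 without sham 1. Has3 stood at 0.543, 0 and 0.0856 CPM in injured libraries, against 6.13 CPM in the uninjured library and no count in either sham library.

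The sulfate donor PAPS is made by Papss1 and Papss2, and Papss2 is the form that cartilage depends on in mice and humans. Papss2 stood at 33.4, 131 and 521 CPM in injured libraries 1, 2 and 3, against 67.9 CPM in the uninjured library and 61.3 and 138 CPM in sham 1 and 2. Injured 1 was the lowest and injured 3 the highest of all 6 libraries, a span of 15.6-fold within the injured group. The log2 fold change over sham control was 1.19 ± 1.05 (SE; edgeR unadjusted p = 0.295), and it turned to -0.29 without injured 3 and was 1.90 without sham 2. Papss1 stood at 31.7, 64.7 and 100.5 CPM in injured libraries, against 54.7 CPM in the uninjured library and 26.7 and 55.7 CPM in sham 1 and 2, and the log2 fold change was 0.67 ± 0.61 (SE; edgeR unadjusted p = 0.307), or 1.30 without sham 2.

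Injured 3 was often the highest injured library for other enzyme genes too. Of 44 enzyme genes with counts in all injured libraries, injured 3 was the highest of the 3 for 25, injured 1 for 10 and injured 2 for 9. How often injured 3 was the highest over all genes was not tested, so this count is not read as a trait of the enzyme genes. Injured 3 also had counts for more genes, 17281, against 14362 in injured 1 and 15372 in injured 2. The 10 chondrocyte markers summed to 17287, 10730 and 57254 CPM in injured libraries 1, 2 and 3, against 8670 CPM in the uninjured library and 6294 and 31430 CPM in sham 1 and 2. All 10 had counts in every library except sham 1, which lacked Matn3. The sums, in which Col2a1 weighs most, overlapped between groups, with injured 3 and sham 2 the highest. Single markers did not all do so: Col9a1, Matn3 and Cnmd were far higher in every injured library than in any other, with Cnmd at 311, 119 and 833 CPM in injured libraries 1, 2 and 3, against 4.09 CPM in the uninjured library and 1.41 and 2.04 CPM in sham 1 and 2. Matn3 stood at 386, 135 and 1558 CPM in injured libraries, against 7.84 CPM in the uninjured library and 0 and 26.95 CPM in sham 1 and 2. Sox9 was highest in sham 2, at 1095 CPM, and Comp too, at 11127 CPM. The part of these markers in the levels of Papss2, Chsy1, Chsy3 and Csgalnact1 was not tested.

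**Figure D5:**
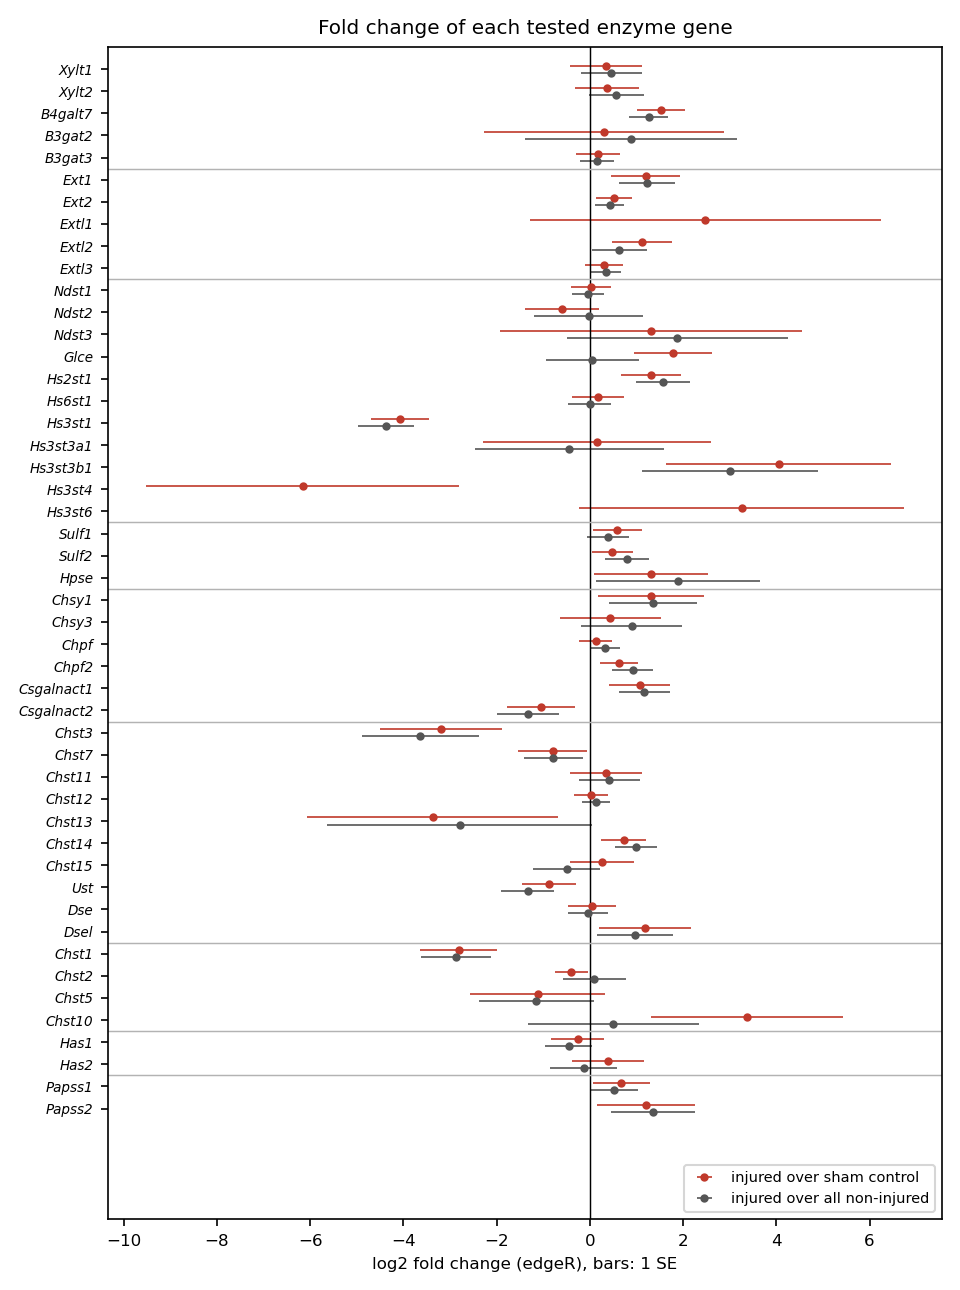
Log2 fold change of injured over sham control (red) and over all non-injured (grey) for each tested enzyme gene with counts in both groups, by edgeR with bars of 1 SE, in the order of synthesis steps. Hs3st1 lies at -4.08 and -4.37, and Chst1 and Chst3 at -2.82 and -3.19 over sham control, while Hs3st4 at -6.17 and Chst13 at -3.38 have bars of 3.36 and 2.69 and rest on counts in 1 sham library each.

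Genes that feed or act beside these enzymes were read from 3 further lists, chosen by function. Of 22 genes for sugar precursors, sulfate supply and the remaining linkage steps, 2 had an unadjusted edgeR p under 0.05 and a higher level in injured than in sham control cells, and 0 had a lower one, where the background over all genes was 2.44% and 2.2%. The median log2 fold change was 0.41, against 0.09 over all genes. B3galt6, which adds the linkage galactose next after B4galt7, stood at 44.2, 25.5 and 21.1 CPM in injured libraries, against 8.57 CPM in the uninjured library and 7.32 and 8.64 CPM in sham 1 and 2. Its injured libraries were all well above the rest, and the log2 fold change was 1.92 ± 0.65 (SE; edgeR unadjusted p = 0.0217, adjusted p = 0.865; DESeq2 adjusted p = 0.115) over sham control and 1.88 ± 0.51 over all non-injured (unadjusted p = 0.00707, adjusted p = 0.452; DESeq2 adjusted p = 0.0343). Pgm3, of UDP-N-acetylglucosamine synthesis, averaged 47.5 ± 14.4 CPM in injured (SD, n = 3) and 19.3 ± 5.31 CPM in sham control cells (SD, n = 2), and the log2 fold change was 1.30 ± 0.50 (SE; edgeR unadjusted p = 0.0371). Over all non-injured, 4 of the 21 genes tested had an unadjusted p under 0.05, all higher (background 3.71%): these genes, the PAPS transporter Slc35b2 (log2 fold change 0.84 ± 0.36) and the sulfate transporter Slc26a2 (2.37 ± 0.96), the last at 263 CPM in injured 3 and at most 33.1 CPM in any other library.

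Of 21 degradation genes, 0 had an unadjusted edgeR p under 0.05 against sham control and 1 of 20 in each direction against all non-injured, near the background of 3.71% higher and 3.72% lower. The one that was higher was Galns, the lysosomal sulfatase of keratan and chondroitin 6-sulfate. It averaged 36.7 ± 8.83 CPM in injured and 12.3 ± 5.99 CPM in all non-injured cells (SD, n = 3 each), a log2 fold change of 1.57 ± 0.53 (SE; edgeR unadjusted p = 0.0197, adjusted p = 0.539). The median log2 fold change of the list was -0.11 over sham control.

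Of 32 core protein and hyaluronan-binding genes, 29 were tested against sham control, and 2 were higher and 1 lower at an unadjusted edgeR p under 0.05, with a background of 2.44% higher and 2.2% lower, so the single lower gene is near that share. Gpc3, a glypican that carries heparan sulfate and binds hedgehog proteins, stood at 6.83, 10.1 and 14.5 CPM in injured libraries, against 163 CPM in the uninjured library and 115 and 65.3 CPM in sham 1 and 2. As with Hs3st1, the uninjured library was the highest and sham 2 the lowest of the non-injured libraries. Its log2 fold change was -3.11 ± 0.49 (SE; edgeR unadjusted p = 0.000443, adjusted p = 0.571; DESeq2 adjusted p = 5.94e-06). Hmmr, a hyaluronan receptor that is also a mitotic spindle protein, averaged 28.4 ± 9.47 CPM in injured cells (SD, n = 3) and stood at 0 CPM in the uninjured library and at 1.70 and 0 CPM in sham 1 and 2. Hapln4 had 16, 1 and 519 counts in injured libraries 1, 2 and 3, with 11.1 CPM in injured 3. It stood at 6.74 CPM in the uninjured library and had no count in sham control. Against all non-injured, 28 genes of this list were tested. At an unadjusted edgeR p under 0.05, 2 were higher (Hmmr and Agrn) and 2 lower (Gpc3 and Dcn). The background over all genes was 3.71% higher and 3.72% lower. The small dermatan sulfate proteoglycan gene Dcn stood at 4841 ± 1408 CPM in injured and 16793 ± 6992 CPM in non-injured cells (SD, n = 3 each). Its edgeR unadjusted p was 0.0207 (adjusted p = 0.546), and its DESeq2 adjusted p was 0.00242. Agrn, a heparan sulfate proteoglycan of basement membranes, was higher there, by 2.38 ± 0.86 on the log2 scale (SE; edgeR unadjusted p = 0.0274, adjusted p = 0.567). Its groups overlapped, with injured 2 at 6.19 CPM below sham 2 at 7.04 CPM.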

How the data were processed

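RNA-seq of sorted mouse skeletal stem cells gave 1 table of whole-number counts per gene symbol, deposited by the authors with 6 columns, all used and matched to samples by the names in the labels. Column totals differ, and the values were taken as unscaled counts. The submitters' processing notes name the builds GRCm38.p6 and mm9 without a role, and as tools Salmon 0.12.0, DESeq (no version) and DESeq2 1.22.2. The sources used here do not say how transcripts were summed to genes or whether strand was kept, so close relatives and antisense genes may share reads. No molecular identifiers are mentioned.

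Counts were filtered with filterByExpr (minimum count 10), scaled by TMM and tested with edgeR 4.0.16 (quasi-likelihood F test, R 4.3.3), adjusting p by Benjamini-Hochberg across every tested gene, with 0.05 as the threshold. The first comparison fitted all 6 libraries as 3 groups (3 residual degrees of freedom), the second as injured against all non-injured (4). Standard errors come from the F statistic. Alternatives were DESeq2 1.42.0, limma-voom (limma 3.58.1), other scalings, no filter, a replicate block, and leaving libraries out; where 1 library is left in a group, it is assumed to vary like the others. The fits were also run on simulated counts with the same spread for every gene. Those runs do not show how many real changes would be missed in these libraries. CPM per kb uses the median length of each gene's protein-coding transcripts in GENCODE M21. Promoters are RefSeq's. The genes with values in every library are Hs3st1, those with an unadjusted p under 0.05 in either comparison, and the 2 of smallest p in each step; others were added after their values were seen. The enzyme genes and lists were chosen with earlier results of these data known. 5 list symbols had no match in the table. The values of 1 gene of the degradation list are not reported here.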

Additional observations from a re-analysis of the deposited data

How the results depend on the processing

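Over all genes, edgeR's count of 0 calls against sham control became 369 by DESeq2, 1 by limma-voom and 3 without a low-count filter, and against all non-injured 345, 7 and 5. For the enzyme genes 0 became 4 and 3 by DESeq2 and was 0 in the other alternatives run. Enzyme genes wholly above sham control numbered 9 (11 to 21 with 1 library left out). Those wholly below numbered 4 (4 to 9, and 2 with library size alone as scaling). Above all non-injured there were 5 (8 to 12, and 3 with RLE scaling). Below all non-injured there were 3 (3 to 6, and 2 with library size alone as scaling, which leaves out Chst3). Leaving out libraries makes such separation easier by construction.

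Of 503 refitted log2 fold changes of 18 genes, 478 kept direction and call, 5 were newly called by DESeq2 and 20 changed sign, none of them passing in any fit. With 1 library left out, those against sham control were Xylt2 (-0.33 without sham 2, range to 1.77), Has2 (-0.21 without injured 3 and -0.34 without sham 1, range to 1.91) and Papss2 (-0.29 without injured 3, range to 1.90). Without sham 1 and injured 1 together, Sulf2 stood at -0.091 and Has2 at -0.068. Against all non-injured they were Glce (-0.39 without injured 3, -0.46 and -0.28 without sham 1 and 2, range to 1.79, and -0.25 without sham 1 and injured 1), Chst10 (-0.082 without sham 1, range to 3.38, and -0.38 without sham 1 and injured 1), Has2 (0.075 by limma-voom; 0.13, 0.052 and 0.41 without injured 1, injured 2 and the uninjured library, range from -0.76) and Papss2 (-0.14 without injured 3, range to 1.87). Chst10 has no fold without sham 2, since sham 1 has no count. The cause was not tested.

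With the replicate number as a block (replicate block), the uninjured library left out and the contrast resting on replicates 1 and 2, Papss2 stood at -0.50 in either comparison, Has2 at 0.16 over all non-injured, and Hs3st1 at -4.31 (edgeR adjusted p = 0.931). The block called 0 genes. Deviations from the group means of same-numbered libraries correlated at r = 0.353 and 0.0107 across genes. With 2 sham libraries, the deviations of sham 1 and sham 2 are mirror images, so these values cannot decide whether the numbers mark pairs.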
